A study of Mus musculus with 16 samples.

Results

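The proprioceptors described here are 290 wells from 5 single-cell libraries of postnatal day (p) 1 mouse dorsal root ganglia (DRG), set against each other by the level of *Hoxc10*. A well was chosen when it held at least 5000 unique molecular identifiers (UMIs), under 20% of them from mitochondrial genes, at least 1 UMI each of *Pvalb*, *Etv1* and *Ntrk3*, at least 300 CPM (UMIs of a gene per 1000000 UMIs) of *Etv1*, and under 200 CPM of *Apoe* and *Fabp7* together. This took 290 of the 480 wells of the 5 libraries, out of 1536 wells in the whole series. UMIs were summed per library. Libraries 2, 5 and 6, in which *Hoxc10* was higher, gave 172 wells (71, 59 and 42), and libraries 1 and 4, in which it was low, gave 118 (69 and 49). Library 3 was shallow and was left out: 12 of its 96 wells were chosen.

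The labels list the same genotypes for every p1 library, Trpv1Cre; PvFlp; Ai65 together with PvCre; Ai14. Ai14 expresses the fluorescent protein tdTomato after Cre recombination, and Ai65 only after both Cre and Flp recombination. The tdTomato-positive neurons of PvCre; Ai14 mice are therefore those with a history of parvalbumin expression, and those of Trpv1Cre; PvFlp; Ai65 mice have a history of *Trpv1* expression as well. The labels state that tdTomato-positive neurons were sorted, whereas the study's methods describe picking by hand at p1. Neither the segmental level nor the mouse line of a single library is labelled, and the sources used here do not state how many animals went into a library. The sets are named by *Hoxc10* alone, and a difference between them cannot be told apart from one of mouse line, level, animal or library preparation. P-values measure the spread between these libraries, which may in part be technical.

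Proprioceptors are the sensory neurons that carry muscle length and tension from spindles and tendon organs to the spinal cord. They express parvalbumin (*Pvalb*), the transcription factors *Runx3* and *Etv1*, and the neurotrophin-3 receptor *Ntrk3*. Hox genes encode homeodomain transcription factors that lie in 4 clusters. The order of the genes in a cluster follows the order in which they are expressed along the body from head to tail, and genes at the same place in different clusters form a paralogue group. *Hoxc10* belongs to a group known for its expression at caudal levels of the trunk.

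The chosen wells carried the markers of proprioceptors in both sets. *Runx3*, which the choice of wells did not use, was at 256, 309 and 334 CPM in libraries 2, 5 and 6 and at 347 and 364 CPM in libraries 1 and 4, and at least 96.6% of the chosen wells of each library held a UMI of it. *Pvalb* ranged from 683 to 1055 CPM over the 5 libraries. A library gave 2261182 to 6869364 UMIs in its chosen wells, with 8.31% to 10.8% from mitochondrial genes. Summed glia markers (10 genes) were at 100.1 to 141 CPM in the higher set and 114 to 197 CPM in the low set. Mesenchymal markers (7 genes, collagens among them) did not overlap between the sets, at 61.2 to 190.2 CPM against 255 to 283 CPM. Summed sensory neuron markers (5 genes) did not overlap either, at 4208 to 4693 CPM against 3679 to 4149 CPM. Of these, *Tubb3* and *Prph* were higher in the higher set without overlap, whereas *Avil*, *Isl1* and *Snap25* overlapped. Summed mechanoreceptor markers (5 genes) were at 139 to 193 CPM against 118 to 130.5 CPM. *Maf* made up most of that sum in each library, and without *Maf* the sum overlapped between the sets. Nociceptor markers (7 genes) were at 25.3 to 174 CPM against 44.2 to 62.6 CPM. Blood, endothelial and muscle markers (11 genes) were at 11.5 to 32.3 CPM except in library 5, which had 596 CPM. Every gene of these 6 lists was detected in the 5 libraries, and their part in the results was not tested. *Xist*, which is transcribed from the inactive X chromosome of females, was at 0.15 CPM in library 1, at 0.31 CPM in library 2, and at 53.0 to 81.5 CPM in the other 3. Each set thus held a library with little *Xist*.

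*Hoxc10* (chr15:102966796-102971893, plus strand, GRCm38) chose the sets, and its level is given as a description only. It was at 52.0, 59.1 and 75.2 CPM in libraries 2, 5 and 6 and at 5.24 and 14.2 CPM in libraries 1 and 4. The nearest libraries on either side of the split were thus library 2 and library 4. A *Hoxc10* UMI was found in 57 of 71 wells of library 2 (80.3%, exact 95% binomial interval 69.1 to 88.8%), 41 of 59 of library 5 (69.5%, 56.1 to 80.8%) and 22 of 42 of library 6 (52.4%, 36.4 to 68.0%). In the low set it was found in 14 of 69 wells of library 1 (20.3%, 11.6 to 31.7%) and 5 of 49 of library 4 (10.2%, 3.40 to 22.2%). These intervals cover counting error only. A single well of library 4 held 23 of its 32 *Hoxc10* UMIs. When each well was thinned to 5000 UMIs, the shares were 25.4%, 18.6% and 26.2% against 6.12% in library 4 and 0 of 69 wells in library 1. A count of 0 allows up to 4.35% of wells with a UMI at that depth, and says nothing of the share that express the gene. Neither set was uniform: every higher library had wells without the transcript, and both low libraries had wells with it.

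**Figure D1:**
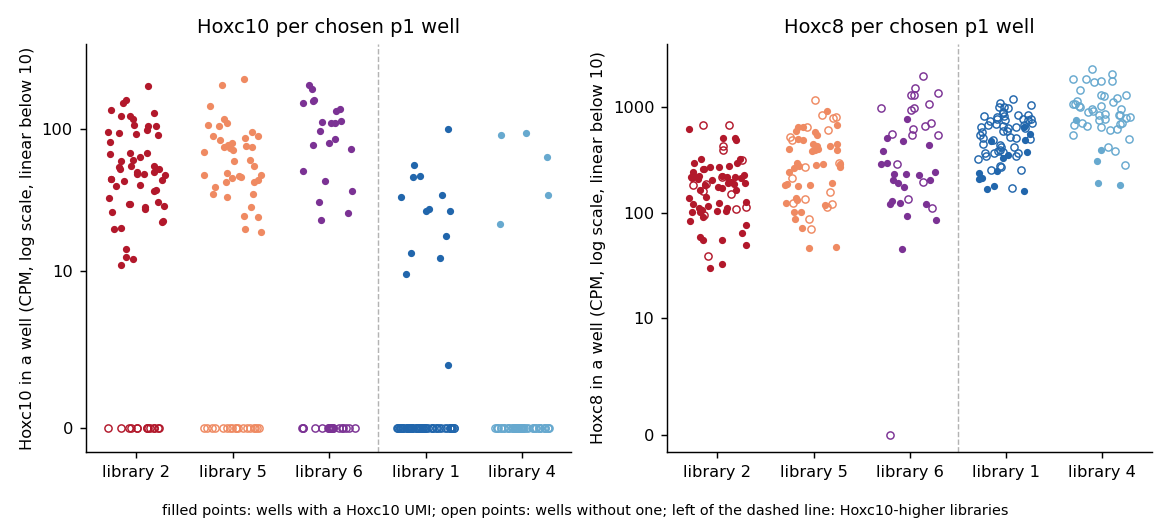
*Hoxc10* (left) and *Hoxc8* (right) in CPM on a log scale in each of the 290 chosen p1 wells, by library, with filled points for wells with a *Hoxc10* UMI and open points for wells without one. Wells without *Hoxc10* occur in all 5 libraries, and the 20 such wells of library 6 held 691 CPM of *Hoxc8* together, against 181 CPM in its other 22 wells.

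Apart from *Hoxc10* and the genes used to choose wells, 0 of 14087 genes passed the test between the sets (edgeR quasi-likelihood test with Benjamini-Hochberg adjustment, threshold 0.05, 0% called in either direction). The unadjusted p was at most 0.05 for 186 genes higher (1.32%) and 128 genes lower (0.909%) in the higher set, 2.23% together, and the smallest was that of *Hoxa10*. DESeq2, run without this filter, called 8 of 28543 genes at the same threshold (0.028%). Of these, *Hoxa10*, *Hoxb9*, *Hoxd10*, *Rprm*, *Caln1*, *S100b* and *Ntm* were higher (0.0245%) and *Hoxc8* was lower (0.0035%) in the higher set. Without a filter on low counts edgeR called 100 of 28545 genes (0.35%), 85 higher (0.298%) and 15 lower (0.0525%). Of the 100, 60 overlapped between the sets, and of the 85 called higher, 49 were lower in library 6 than in a low library. CPM did not overlap between the sets for 13.2% of the 14087 genes, with 6.13% higher and 7.08% lower in the higher set.

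Hox genes made up 4 of the 8 DESeq2 calls. Of the 38 Hox genes other than *Hoxc10*, 26 had enough UMIs to be tested, and 0 of these were called by edgeR. Of the 26, 14 did not overlap between the sets (53.8%, against 13.2% of all genes), with 11 higher and 3 lower in the *Hoxc10*-higher libraries. The unadjusted p was at most 0.05 for 10 Hox genes that were higher and 2 that were lower, against 2.23% of all genes. Their median log2 fold change was 0.76, and that of all genes was 0.01. Of the 12 genes that were not tested, 3 (*Hoxa13*, *Hoxd12* and *Hoxd13*) had 0 UMIs in the 5 libraries. A gene with few UMIs could pass the filter through the set where it was high, so these shares describe the tested genes alone.

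**Figure D2:**
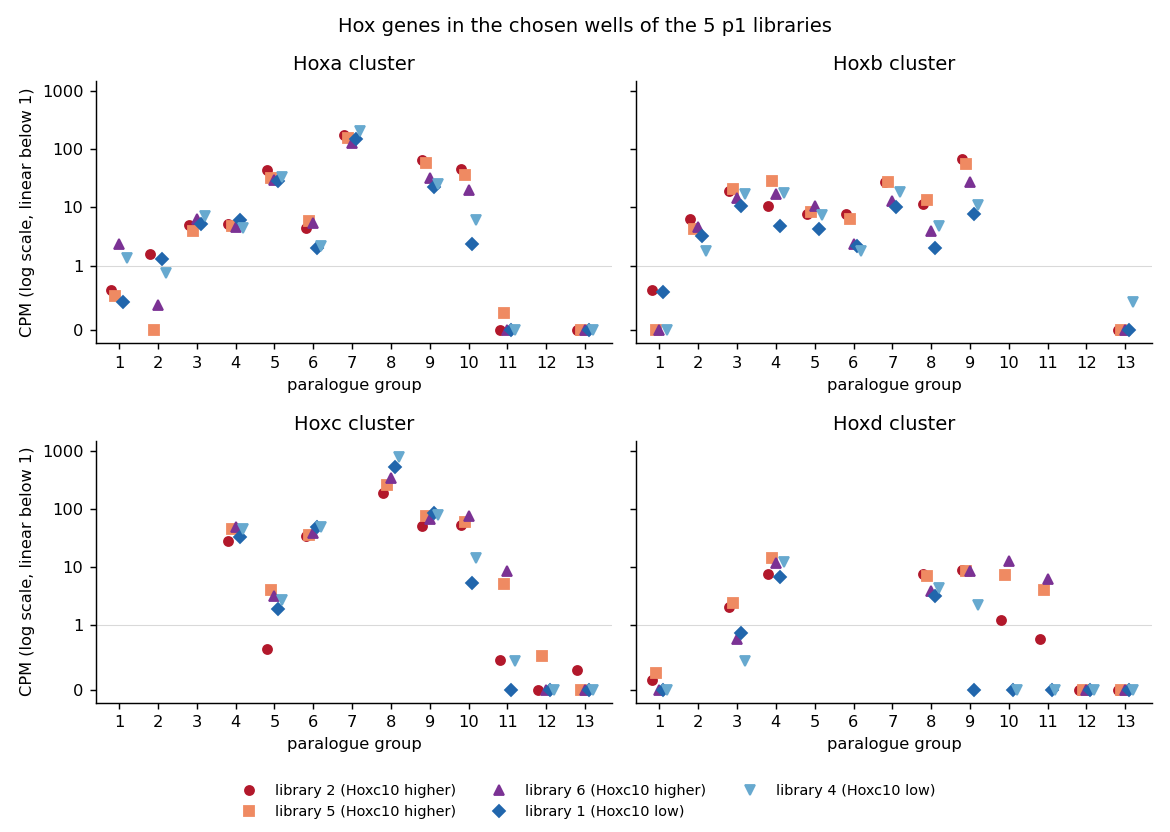
CPM (log scale, linear below 1) of each Hox gene in the 5 p1 libraries, by cluster and paralogue group, where each point is the sum over the chosen wells of 1 library. The tested genes of groups 9 to 11 do not overlap between the sets in any of the 4 clusters, but narrowly so in the Hoxc cluster. There *Hoxc11* rests on 3 UMIs in library 2 (0.47 CPM) against 1 in library 4 (0.44 CPM). *Hoxc9* is turned the other way (50.7 to 76.5 against 79.2 to 83.6 CPM). *Hoxc11*, *Hoxd9*, *Hoxd10* and *Hoxd11*, with 0 to 5 UMIs in the low set, could pass the filter only through the higher set. In groups 1 to 4, 6 of the 7 tested genes overlap.

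Among the tested Hox genes, those of paralogue groups 9 to 11 separated the sets most often, but the filter had a part in this. Of 9 genes in these groups besides *Hoxc10*, 8 were tested and 0 of these overlapped between the sets. Higher levels with higher *Hoxc10* were found for 7, and *Hoxc9* was lower. The median log2 fold change of the 8 was 3.46. It was 3.17 with the genes at 0 in the low set placed at their pooled lower bound. *Hoxd9*, *Hoxd10*, *Hoxd11* and *Hoxc11*, with 0 to 5 UMIs in the low set, could pass the filter only through the higher set. For these genes at least, the separation was in part fixed in advance, and the medians above rest in part on them. *Hoxa10* and *Hoxb2* each needed a higher library to pass. In groups 5 to 8, 3 of 11 tested genes were higher, 2 were lower and 6 overlapped. Of the 3, *Hoxa6* and *Hoxb6* could also pass the filter only through the higher set. In groups 1 to 4, 1 of 7 tested genes (*Hoxb2*) was higher, 6 overlapped, and the median log2 fold change was 0.27. All 6 genes of groups 12 and 13 had at most 3 UMIs each in the 5 libraries and were not tested.

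*Hoxa10*, a paralogue of *Hoxc10* in the Hoxa cluster (chr6:52231197-52240854, minus strand), was at 46.7, 36.1 and 20.3 CPM in libraries 2, 5 and 6 and at 2.33 and 6.19 CPM in libraries 1 and 4. All 3 higher libraries were above both low ones, with 489 UMIs against 30. Its log2 fold change was 3.24 ± 0.53 (SE, adjusted p = 1.00 by edgeR and 3.1e-06 by DESeq2).

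*Hoxd10*, the paralogue in the Hoxd cluster (chr2:74691924-74695105, plus strand), was at 1.24, 7.39 and 12.9 CPM in libraries 2, 5 and 6. It had 69 UMIs in the higher set and 0 in the low set. Taken against a floor of 3 UMIs over both low libraries (0.33 CPM), its pooled level of 5.40 CPM was at least 16.4-fold higher. This bound covers counting error only, and library 2, at 1.24 CPM, lay well below the pooled level. The adjusted p was 1.00 by edgeR and 0.045 by DESeq2.

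*Hoxb9*, *Hoxa9* and *Hoxd9* are paralogues of the neighbouring group. *Hoxb9* was at 67.4, 56.2 and 26.9 CPM against 7.86 and 11.1 CPM, a log2 fold change of 2.48 ± 0.43 (SE, adjusted p = 1.00 by edgeR and 3.2e-05 by DESeq2). *Hoxa9* was at 65.7, 58.8 and 31.6 CPM against 22.7 and 25.7 CPM. *Hoxd9* was at 9.02, 8.70 and 8.57 CPM against 0 and 2.21 CPM. In each of the 3 genes the sets did not overlap, although library 6 lay near the low set for *Hoxa9*.

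*Hoxc11* and *Hoxd11* belong to the next group. *Hoxc11* was at 0.47, 5.01 and 8.57 CPM against 0 and 0.44 CPM. With 44 UMIs in the higher set and 1 in the low set, the ratio of the pooled levels was 31.4 (exact 95% counting interval 5.35 to 1269). *Hoxd11* was at 0.78, 3.96 and 6.23 CPM and had 36 UMIs against 0. Its pooled level was at least 8.57-fold higher by the same floor, again by counting error only. Library 2 held little of either gene, and for *Hoxc11* it stood at 0.47 CPM beside 0.44 CPM in library 4.

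The 3 higher libraries were not alike among themselves. Library 2 held the most *Hoxa10*, *Hoxb9* and *Hoxa9* of the 3 and the least *Hoxd10*, *Hoxd11* and *Hoxc11*, and library 6 held the least of the first 3 genes and the most of the last 3. *Hoxa10* was at 46.7 CPM in library 2 and at 20.3 CPM in library 6, whereas *Hoxd10* was at 1.24 CPM in library 2 and at 12.9 CPM in library 6. These are single libraries, and the difference between them was not tested.

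The promoters of *Hoxa10*, *Hoxd10* and *Hoxd11* are shown because these genes stood higher together in the set that *Hoxc10* chose. The sequences are from RefSeq (GRCm38.p6), reach from 250 bases before to 50 bases after an annotated start, and read 5′ to 3′ on the strand of the gene. They are those of *Hoxa10* at chr6:52240805-52241104 (minus strand), *Hoxd10* at chr2:74691641-74691940 (plus strand) and a second start of *Hoxd11* at chr2:74682073-74682372 (plus strand). Capitals mark a match on either strand to TGATNNAT, the composite letters of Hox and Pbx proteins.
Hoxa10: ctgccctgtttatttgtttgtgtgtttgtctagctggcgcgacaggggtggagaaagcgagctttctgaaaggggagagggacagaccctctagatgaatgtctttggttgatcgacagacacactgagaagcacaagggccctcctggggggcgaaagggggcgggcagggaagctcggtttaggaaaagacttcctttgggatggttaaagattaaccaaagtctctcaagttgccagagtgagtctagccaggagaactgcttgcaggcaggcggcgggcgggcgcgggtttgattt
Hoxd10: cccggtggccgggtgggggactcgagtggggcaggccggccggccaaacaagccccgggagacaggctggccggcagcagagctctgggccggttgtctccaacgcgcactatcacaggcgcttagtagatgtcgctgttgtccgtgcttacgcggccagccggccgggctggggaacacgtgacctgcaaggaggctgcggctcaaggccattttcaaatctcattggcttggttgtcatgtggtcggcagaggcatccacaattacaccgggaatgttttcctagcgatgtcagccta
Hoxd11: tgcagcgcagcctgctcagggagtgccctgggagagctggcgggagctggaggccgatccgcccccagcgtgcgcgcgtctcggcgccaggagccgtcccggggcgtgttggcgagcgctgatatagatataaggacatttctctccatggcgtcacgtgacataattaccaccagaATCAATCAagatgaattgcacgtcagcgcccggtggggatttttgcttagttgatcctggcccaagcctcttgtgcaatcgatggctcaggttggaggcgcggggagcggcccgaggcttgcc

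Of 7 such windows for 5 genes (*Hoxa9*, *Hoxa10*, *Hoxd9*, *Hoxd10* and *Hoxd11*), 1 held TGATNNAT, 1 held TATAAA (a second start of *Hoxa10*) and 0 held TTTATNG, a run found in sites of caudal-type factors. Both strands were searched. Among 32851 promoters of the same length, 8.85%, 13.6% and 10.9% held these letters. The windows held 4 to 25 CpG dinucleotides, against a median of 7 over all promoters. A match is a description of the letters and not of a site in use.

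*Hoxc8* (chr15:102990607-102994111, plus strand) had the largest difference in the opposite direction among the tested Hox genes. It was at 186, 257 and 335 CPM in libraries 2, 5 and 6 and at 517 and 793 CPM in libraries 1 and 4. All 3 higher libraries lay below both low ones, with a log2 fold change of -1.34 ± 0.29 (SE, adjusted p = 1.00 by edgeR and 0.0068 by DESeq2). Mesenchymal markers moved with it, at 61.2 to 190.2 CPM against 255 to 283 CPM, and their part in its level was not tested. *Hoxc8* lies next to *Hoxc9* in the cluster that holds *Hoxc10*. *Hoxc9* was at 50.7, 76.5 and 67.02 CPM against 83.6 and 79.2 CPM (log2 fold change -0.33 ± 0.21 (SE), adjusted p = 1.00 by edgeR), and its sets were separated by less than 3 CPM. *Hoxc6* was at 34.1, 35.6 and 38.2 CPM against 48.3 and 49.1 CPM. The annotated span of *Hoxc5* covers *Hoxc6*, *Hoxc8* and *Hoxc9* and overlaps *Hoxc10* on the same strand, but *Hoxc5* itself had 46 UMIs in the 5 libraries.

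Other Hox genes of groups 5 to 8 were mixed, with 3 that were higher in the higher set without overlap. *Hoxa6* was at 4.51, 5.80 and 5.46 CPM against 2.04 and 2.21 CPM, and *Hoxb6* at 7.78, 6.33 and 2.34 CPM against 2.18 and 1.77 CPM. Both could pass the filter only through the higher set, which in part fixed their direction in advance. *Hoxb6* in library 6 rests on 6 UMIs, beside 15 in library 1. *Hoxb5* did not overlap either, at 7.62 to 10.5 CPM against 4.22 and 7.52 CPM, with library 2 just above library 4. *Hoxb8* overlapped, at 11.4, 13.2 and 3.90 CPM against 2.04 and 4.86 CPM. *Hoxa7* was at 128 to 176 CPM against 151 and 211 CPM, and *Hoxa5* at 30.0 to 43.4 CPM against 29.0 and 33.6 CPM. The span of *Hoxa3* covers *Hoxa4*, *Hoxa5* and *Hoxa6* on the same strand, so UMIs of these genes may be split between them. Of 14 non-coding genes of the clusters in the table, 4 were tested and 0 were called. *Hotair*, a non-coding gene of the Hoxc cluster, had 0, 5 and 3 UMIs in libraries 2, 5 and 6 and 0 in the low set. It overlapped between the sets and was not tested.

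**Figure D3:**
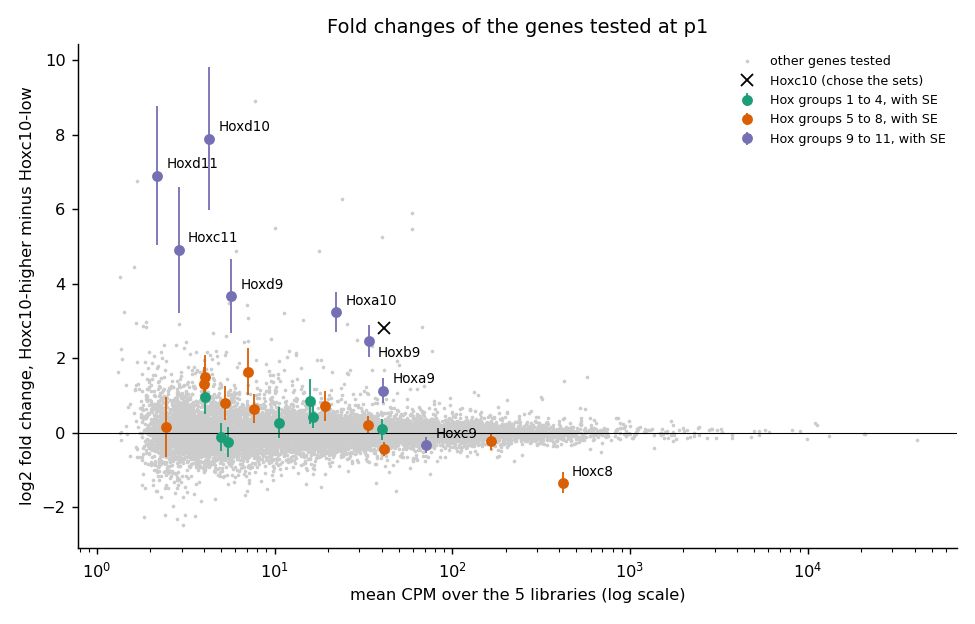
Log2 fold change (Hoxc10-higher minus Hoxc10-low libraries) against mean CPM (log scale) for the genes tested at p1, with the Hox genes coloured by paralogue group and bars for their SE. *Hoxa10* (3.24) and *Hoxb9* (2.48) lie far above the median of all genes (0.01) and *Hoxc8* (-1.34) below it, while fitted values of *Hoxd10* and *Hoxd11* rest on 0 UMIs in the low set and are not bounds.

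Hox genes also differed between wells of the same library, split by whether a *Hoxc10* UMI was found. This is a description, since wells of a library share their source and wells with *Hoxc10* were often deeper. *Hoxc8* was lower in the wells with *Hoxc10* in 5 of 5 libraries. Its pooled level was 178 against 264 CPM in library 2, 243 against 368 CPM in library 5 and 181 against 691 CPM in library 6. In the low set it was 326 against 565 CPM in library 1 and 260 against 941 CPM in library 4. Among wells of at least 20000 UMIs the order was the same in all 5 libraries, for example 175 against 715 CPM in library 6 and 326 against 563 CPM in library 1.

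*Hoxa10* was also set out by these wells. All 14 *Hoxa10* UMIs of library 4 came from its 5 wells with *Hoxc10*, and its 44 other wells held 0. In library 6 the level was 27.4 CPM in the 22 wells with *Hoxc10* against 3.87 CPM in the 20 without, and in library 1 it was 8.72 against 0.73 CPM. In library 2 it was 47.3 against 40.6 CPM, and in library 5 the order was turned, at 34.3 against 50.9 CPM. When the split was made on wells thinned to 5000 UMIs, *Hoxa10* was 30.2 against 13.6 CPM in library 6, 26.4 against 3.93 CPM in library 4, 41.5 against 48.6 CPM in library 2 and 39.4 against 34.9 CPM in library 5, and library 1 had 0 wells with *Hoxc10*. The order thus depended on the depth of the split in libraries 2 and 5, and the gap in library 6 was smaller. For *Hoxc8* the thinned split kept the order in the 4 libraries that had such wells, with 174 against 191 CPM in library 2 and 133 against 470.1 CPM in library 6.

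The e15.5 libraries of the series, from PvtdTom embryos, gave a separate look at the same genes. Wells were chosen by the same limits, 6 to 64 per library. The first split, at the largest gap in log2 *Hoxc10*, left libraries 2 and 4 alone and called 0 of 13209 genes. A second split, chosen after seeing the values, set libraries 6 to 10 (*Hoxc10* at 114 to 149 CPM) against libraries 1 to 5 (3.14 to 52.2 CPM). Between these sets edgeR called 158 genes higher (1.3%) and 122 lower (1%), together 2.3% of 12156. Of 20 Hox genes tested besides *Hoxc10*, 5 rose and 2 fell.

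*Hoxa10* rose from 0 to 8.0 CPM in the 5 low e15.5 libraries to 52.4 to 87.7 CPM in the 5 higher ones, a log2 fold change of 4.43 ± 0.36 (SE, edgeR adjusted p = 6.1e-05). *Hoxa9* rose by 1.38 ± 0.17 and *Hoxb9* by 1.86 ± 0.38 on the log2 scale (SE, edgeR adjusted p = 0.0016 and 0.017). *Hoxc8* fell from 358 to 507 CPM to 124 to 195 CPM (log2 fold change -1.52 ± 0.14 (SE), edgeR adjusted p = 9.7e-05). *Hoxc9* also fell, from 156 to 208 CPM to 72.1 to 119 CPM. *Hoxb2* and *Hoxb7* were the others that rose. The call of *Hoxb9* was lost without library 2 (adjusted p = 0.062) or library 5 (0.063), and that of *Hoxb2* without library 2, 5, 9 or 10 (edgeR adjusted p from 0.051 to 0.083). *Hoxa10*, *Hoxb9* and *Hoxc8* are thus called at e15.5 and, by DESeq2, at p1. Of the 8 DESeq2 calls at p1, 7 were tested at e15.5, 5 passed in the same direction and 0 in the opposite one. *Hoxd10* was at most 5.29 CPM at e15.5 and was not tested there.

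**Figure D4:**
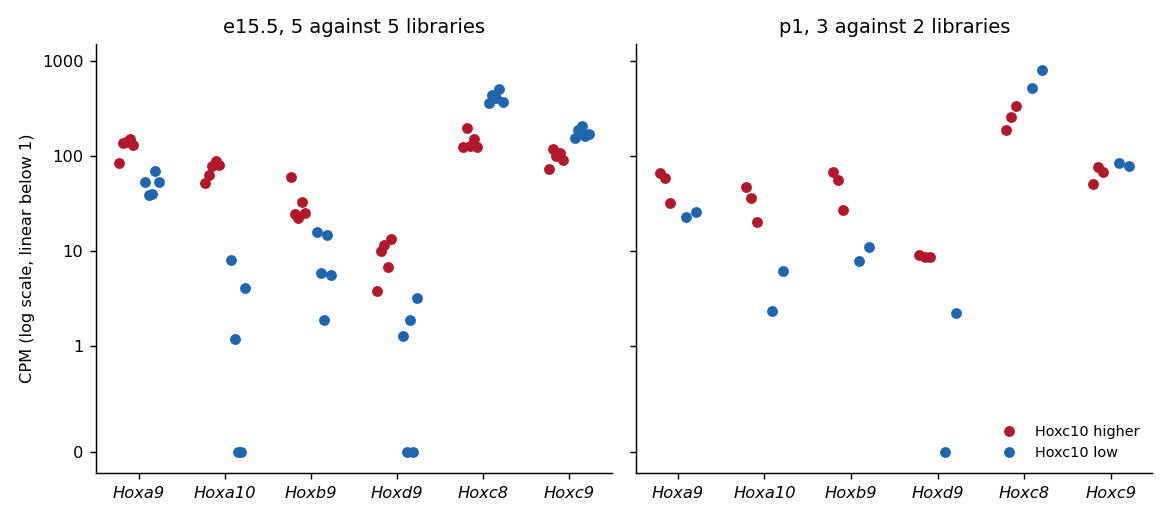
CPM (log scale, linear below 1) of 6 Hox genes in each e15.5 library (left, 5 against 5) and each p1 library (right, 3 against 2), with red points for libraries with higher *Hoxc10* and blue points for the others. At both ages *Hoxa9*, *Hoxa10*, *Hoxb9* and *Hoxd9* lie higher and *Hoxc8* and *Hoxc9* lower in red, without overlap. *Hoxd9* was not tested at e15.5, where red library 6 (3.79 CPM) lies close to blue library 5 (3.22 CPM). At p1 *Hoxd9* could pass the filter only through the higher set.

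The 4 genes outside the Hox clusters that DESeq2 called are named here after their values were seen. *Rprm*, an inhibitor of cell cycle progression, was at 52.4, 57.0 and 36.2 CPM against 13.5 and 17.2 CPM (log2 fold change 1.69 ± 0.28 (SE), DESeq2 adjusted p = 0.0037, edgeR adjusted p = 1.00). *Caln1*, a calcium-binding protein of neurons, was at 88.2, 42.5 and 24.9 CPM against 12.1 and 8.40 CPM. *S100b*, a calcium-binding protein of glia and some neurons, was at 711, 652 and 336 CPM against 186 and 246 CPM. Summed glia markers, which do not include *S100b*, overlapped between the sets, and a glial part in its level was not tested. *Ntm*, an adhesion molecule of the IgLON family, was at 930.2, 916 and 468 CPM against 172 and 373 CPM. Library 6 was the lowest of the higher set for each of the 4 genes. At e15.5 *Rprm* (1.05, edgeR adjusted p = 0.0035) and *Ntm* (1.79, edgeR adjusted p = 0.0075) rose with *Hoxc10* on the log2 scale, and *Caln1* was at -0.02 and *S100b* at 1.36 without passing.

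The 6 muscle-type genes taken from the study's text (*Tox*, *Epha3*, *C1ql2*, *Gabrg1*, *Efna5* and *Trpv1*) overlapped between the p1 sets. Other genes that it ties to muscle groups were not looked at under this heading. *Gabrg1*, a GABA-A receptor subunit, was at 234 CPM in library 2, 64.6 in library 5 and 9.74 in library 6, against 12.1 and 18.1 CPM in libraries 1 and 4. *Efna5*, an ephrin ligand, was at 132, 67.3 and 9.74 CPM against 17.3 and 23.4 CPM. Library 2 was highest and library 6 lowest of all 5 for both genes.

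*Tox*, a nuclear high-mobility-group protein, had the opposite order within the higher set, at 3.58, 28.8 and 66.2 CPM against 48.3 and 52.2 CPM. *Epha3*, an ephrin receptor, was at 6.85, 24.8 and 29.6 CPM against 23.6 and 31.8 CPM. *C1ql2*, a secreted synaptic organizer, was at 12.8 CPM in library 1 and at 0.39 to 2.65 CPM in the others. *Trpv1* was at 0 to 0.88 CPM in the 5 libraries and was not tested. Without a filter on low counts edgeR called *Gabrg1*, *Efna5* and *C1ql2*, although all 3 overlapped between the sets. By *Gabrg1*, *Efna5*, *Tox* and *Epha3*, library 6 lay nearer to the low set than to library 2, although it held the most *Hoxc10* of the 5.

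Between the e15.5 sets split by CPM, 4 of these genes passed the edgeR test. *Gabrg1* rose by 4.48 (adjusted p = 0.0023) and *Efna5* by 1.33 (adjusted p = 0.030) on the log2 scale where *Hoxc10* was higher, and *Epha3* fell by 0.82 (adjusted p = 0.028) and *C1ql2* by 2.37 (adjusted p = 0.043). *Tox* was at -0.63 (adjusted p = 0.30). The difference between the ages was not tested.

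**Figure D5:**
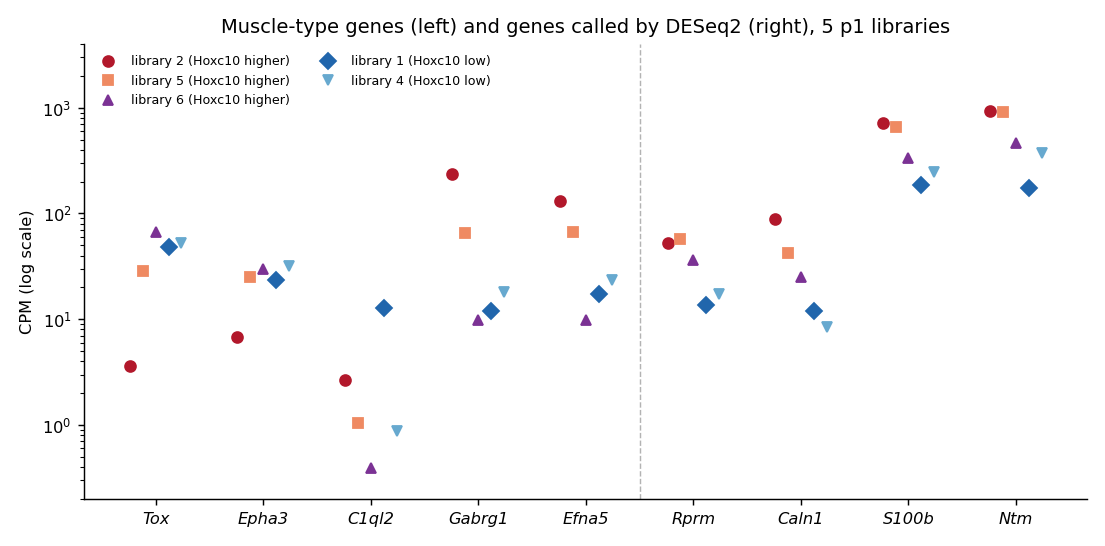
CPM (log scale) in the 5 p1 libraries of 5 muscle-type genes (left of the dashed line) and of the 4 genes outside the Hox clusters called by DESeq2 (right). The muscle-type genes overlap between the sets and spread widely within the higher set (*Gabrg1* from 9.74 to 234 CPM), while the 4 genes on the right do not overlap.

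Among other lists of genes, 0 members were called by edgeR or DESeq2, and the members with an unadjusted p of at most 0.05 (2.23% of all genes) are named here after their values were seen. Of 8 tested Hox cofactors, *Meis2* had such a p, at 203, 186 and 228 CPM against 346 and 277 CPM. Of 37 tested genes of the semaphorin, plexin, neuropilin, Slit, Robo and netrin families, the repellent *Sema3a* (11.05, 13.2 and 9.35 against 25.3 and 23.4 CPM) and the netrin receptor *Dcc* (9.02, 9.76 and 10.1 against 12.8 and 20.3 CPM) were the only such genes, both at lower levels in the higher set. Of 15 ephrins and Eph receptors there were 0, and of 12 classical cadherins there was 1, *Cdh8* (46.4, 56.7 and 65.5 against 96.5 and 76.1 CPM).

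Of 22 tested sensory neuron transcription factors, 2 had such a p. *Pou4f3*, which the list of 4 tested spindle and tendon organ afferent genes also holds, was at 44.2, 47.2 and 56.5 CPM against 30.9 and 25.7 CPM, and *Maf* at 131, 101 and 124 CPM against 76.1 and 92.0 CPM. *Maf* is also 1 of the 5 mechanoreceptor markers, whose sum was 139 to 193 CPM against 118 to 130.5 CPM. *Maf* made up most of that sum in each library, and without *Maf* the sum overlapped between the sets. Of 24 tested potassium channel subunits, *Kcna2*, *Kcnab1* and *Kcnq5* had such a p with a higher mean in the higher set. *Kcna2* was at 182, 143 and 162 CPM against 117 and 113 CPM. *Kcnq5* overlapped between the sets, with library 6 at 1.95 CPM and library 4 at 2.65 CPM. Of 19 GABA-A and glutamate receptor subunits there were 2, *Gabrg1* and *Grik4*, and both overlapped between the sets. Of 10 growth factor receptors, 8 mechanotransduction genes, 17 immediate early and stress genes and 5 sex-linked genes there were 0. The median log2 fold change of these lists lay between -0.22 and 0.17 apart from the 5 tested muscle-type genes (-0.47), against 0.01 for all genes.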

How the data were processed

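Members and gene lists were chosen with earlier results of these data known. The authors used CEL-Seq2, then scruff in R to demultiplex and map the reads and to make the deposited UMI counts; per the submitters' processing notes the build was mm10 (GRCm38). They are unfiltered, 96 wells per library, and no well repeated another. The sources used here do not state whether counting used strand. Symbols and positions were matched to GENCODE M21 (GRCm38) for 49412 of 49671 IDs. UMIs of the chosen wells were summed per library and tested in edgeR (version 4.0.16, R version 4.3.3) with filterByExpr, TMM, the quasi-likelihood F test and Benjamini-Hochberg adjustment over all genes, with libraries as replicates. Tested on counts simulated for this comparison (13744 genes), this found 88% of 4-fold and 21% of 2-fold changes, and 14.2% of its calls were unchanged genes. In the real sums *Hoxa10*, *Hoxb9* and *Hoxd9*, at log2 fold changes of 3.24, 2.48 and 3.68, were not called by edgeR. The simulated rates thus do not carry over to the real sums, and a count of 0 calls does not mean few changes. DESeq2 (version 1.42.0) was an alternative. Named were all Hox genes, the study text's muscle-type genes and any called gene of a list; up to 12 called genes a side with at least 10 CPM would have been added, and 0 qualified. Doublets were not removed. Some genes of the potassium channel list are not reported here. Plots used Matplotlib (version 3.10.9).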

Additional observations from a re-analysis of the deposited data

Results flagged for a closer look

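Of 56 values compared over the 5 p1 libraries, 4 had a library far from the others by Dixon's test at the 95% level, where chance gives about 1 in 20. *C1ql2* was at 12.8 CPM in library 1, and *Gabrg1* was at 234 CPM in library 2. Summed blood, endothelial and muscle markers reached 596 CPM in library 5, of which the 3 globin genes, also apart on their own, made up 581 CPM.

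Library 3, which entered no comparison, held Hox UMIs above the 3 that a count of 0 allows in its 12 chosen wells, 157335 UMIs in all. It had 71 UMIs of *Hoxc8*, 17 of *Hoxa7*, 13 of *Hoxc9*, 9 of *Hoxc6*, 8 of *Hoxa5*, 6 of *Hoxc10*, 5 of *Hoxc4*, and 4 each of *Hoxa9* and *Hoxd9*.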

How the results depend on the processing

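The number of genes called between the p1 sets, 0 by edgeR, was 8 with DESeq2 and 100 without a filter on low counts, and for Hox genes it was 4 and 8. It stayed at 0 with library size alone, wells of at least 20000 UMIs, no limit on *Etv1*, *Apoe* and *Fabp7*, wells thinned to 5000 UMIs, and without each library in turn (0 to 0). Without library 1 or 4 the low set is a single library, assumed to vary like the higher set. A count of 0 with adjusted p near 1 is no sign of stability. The unadjusted p was at most 0.05 for 314 of 14087 genes in the edgeR test and 243 of 28543 in DESeq2. Without a filter, 835 of 28545 genes had such a p in edgeR.

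The number of tested Hox genes that did not overlap, 14, was 9 with wells thinned to 5000 UMIs and 14 to 22 without 1 library, the 22 without library 4. This count and the e15.5 split by CPM were alternatives added after the values were seen. No share of all genes is given for the count under these other settings. Any gene can stay free of overlap more easily with fewer libraries, above all without library 4, where library 1 alone is the low set. The counts without 1 library thus cannot be read against the 13.2% of all genes, nor as a stronger separation of the Hox genes. With that split, the p1 calls called the same way at e15.5 were 0 in edgeR, 39 in edgeR without a filter and 5 in DESeq2; with the first split they were 0 under every setting run. The Hox genes called at e15.5, 7, were 12 without a filter and 6 to 10 without 1 library, and *Hoxa9*, *Hoxa10*, *Hoxb7*, *Hoxc8* and *Hoxc9* passed in 10 of 10 such fits, *Hoxb9* in 8 and *Hoxb2* in 6.

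Of 458 log2 fold changes of 45 named genes under alternatives, 419 kept direction and call, 25 passed the threshold and 14, of 7 genes, turned in direction; at p1 these 7 genes passed neither edgeR nor DESeq2. Thinning gave 0.11 for *Hoxa7*, -0.063 for *Hoxc4* and 0.50 for *Hoxc9*. Wells of at least 20000 UMIs gave -0.18 for *Hoxc5*, and no limit on *Etv1*, *Apoe* and *Fabp7* gave 0.060 for *Hoxa4*. Without 1 library the range was -0.54 to 0.0043 for *Hoxa3*, -0.26 to 0.10 for *Hoxa4*, -0.50 to 0.062 for *Hoxa7*, -0.18 to 0.35 for *Hoxc4*, -0.43 to 0.37 for *Hoxc5* and -0.20 to 0.73 for *Hoxd4*. The cause was not tested. No paired analysis was possible because each replicate number occurs once among the p1 libraries compared. With 3 against 2 libraries of 2261182 to 6869364 UMIs, 2-fold changes were mostly out of reach in simulated counts. In the real sums larger ones were not called by edgeR either, such as *Hoxa10* at a log2 fold change of 3.24.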
